A study of Mus musculus with 2 samples.

Results

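The genes described here encode basic helix-loop-helix (bHLH) transcription factors and their inhibitors: the E proteins Tcf3, Tcf4 and Tcf12, the Id proteins Id1, Id2, Id3 and Id4, and the heart factors Hand1, Hand2 and Twist1. They were chosen by name, and every probe was taken that the platform annotation assigned to 1 of these 10 symbols. That gave 19 probes, for 10 of the 19057 gene symbols named on the array. The study compared 2 RNA samples from mouse hearts at E11.5, a day of gestation when the epicardium already covers the heart: all cells of the dissociated heart, and the epicardial cells isolated as lacZ-positive. Both samples carried the genotype Tcf21lacZ, that is lacZ at the locus of the bHLH gene Tcf21, on a mixed strain background of C57BL/6, 129 and CD-1. There was thus no sample without the lacZ allele, and the sources used here do not give whether 1 or both copies carried it, how the cells were sorted or how many hearts were pooled. In the mouse embryo Tcf21 is known from the epicardium and from mesenchyme derived from it, and lacZ at this locus does not tell those apart.

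A bHLH protein binds DNA as a dimer: the helix-loop-helix parts hold the partners together and the basic parts touch a short DNA motif, the E-box, whose letters are CANNTG. E proteins (class I) are made in most tissues and serve as the common partner of tissue-restricted class II factors such as Hand1, Hand2, Twist1 and Tcf21. Id proteins have the helix-loop-helix but no basic part, so a dimer of an Id protein and an E protein does not bind the E-box. In the mouse, Hand1 and Hand2 are known for their roles in forming the ventricles and outflow tract, Twist1 for mesenchyme of the cardiac cushions, and Id genes for expression in epicardium and cushions and for response to bone morphogenetic proteins (BMPs).

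Each group had 1 bead array, on which many beads carry each probe and their mean brightness measures the matching RNA. With 1 array a group there is no spread between samples and no test, so differences are described by size and the precision is limited by the number of arrays. The error printed is the standard error over beads (bead SE), which leaves out the spread between animals, isolations and hybridisations. The median intensity was 57.6 in total heart and 63.5 in lacZ-positive cells, and 34.3% and 35.8% of the 45281 probes were detected, meaning a detection p-value under 0.01. Log2 ratios are lacZ-positive minus total heart after normalization, and their median over the 9713 genes detected on at least 1 array was 0.044. Levels of different probes are not set against each other, because probes differ in how brightly they report the same amount of RNA. In bulk samples like these, fewer cells of a type and less RNA per cell cannot be told apart.

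Of the 10 members, 9 were detected, and each of these had a higher normalized signal in the lacZ-positive array than in total heart. Hand1, the other member, was not detected on either array. By measured ratio, Id3 and Twist1 were past 2-fold, 7 members were within 2-fold and 0 were at least 2-fold lower. Across all 9713 detected genes, 3.82% were at least 2-fold higher, 6.44% were at least 2-fold lower and 54.2% had a log2 ratio above 0. The median log2 ratio of the 9 detected members was 0.72. The Id genes had the highest median of the 3 roles, 0.99 over 4 genes, against 0.93 for the 2 detected genes of Hand and Twist and 0.47 for the 3 E proteins. The order of the first 2 was not settled, since Hand and Twist had the higher median with no background correction (0.77 against 0.75), with an offset of 50 (0.817 against 0.810) and in the authors' processed values (0.76 against 0.74). Id4 passed the detection limit on the lacZ-positive array only, so it entered these counts through the array where it was brighter. It is among the 7 by its measured ratio, but its bound, at least 1.93-fold higher, does not settle whether it lay within 2-fold.

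**Figure D1:**
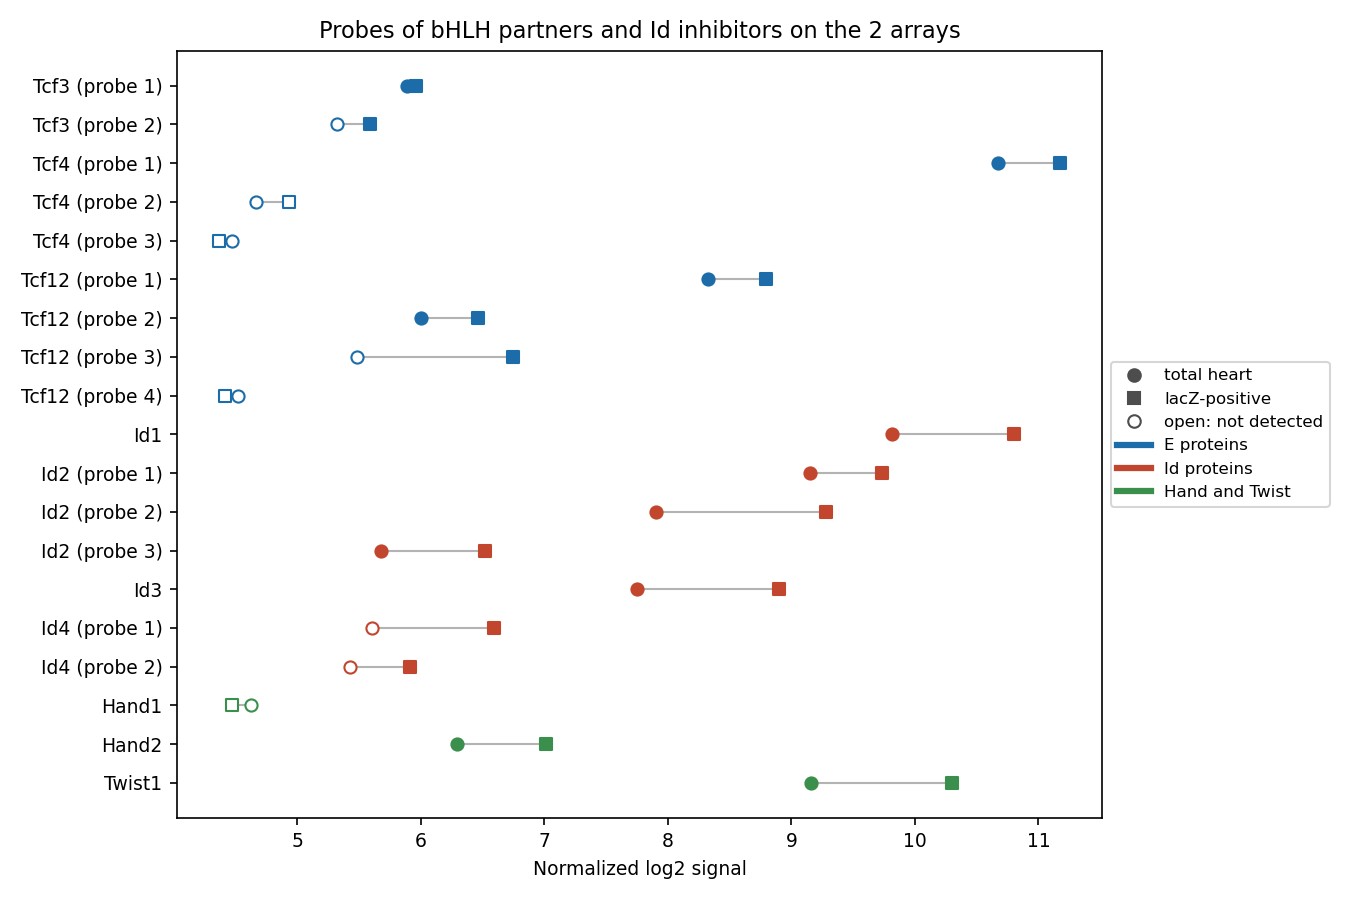
Normalized log2 signal (horizontal axis) of each of the 19 probes on the total heart array (circles) and the lacZ-positive array (squares), with open symbols where a probe was not detected; colours give the role and probes of a gene are numbered from the brightest. The square lies to the right of the circle for each of the 15 probes detected on at least 1 array, while Hand1 has open symbols only.

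Among E proteins, Tcf4 and Tcf12 were moderately higher in the lacZ-positive cells and Tcf3 was close to level. Tcf4 encodes the E protein also called E2-2 and is not the Wnt effector Tcf7l2, which shares the older name. Its detected probe had a deposited intensity of 1430 in total heart (bead SE 54.3) and 2664 in lacZ-positive cells (bead SE 59.4). On the normalized scale these were log2 signals of 10.67 and 11.18. The log2 ratio of Tcf4 was thus 0.50 with a bead SE of 0.061, a 1.42-fold higher signal. The 2 other probes of Tcf4 were not detected on either array and give no ratio. Tcf12, which encodes the E protein HEB, had log2 signals of 8.33 in total heart and 8.79 in lacZ-positive cells by its brightest probe, a ratio of 0.47 (bead SE 0.095). A second Tcf12 probe, detected on both arrays, gave almost the same ratio, 0.46 (bead SE 0.16). The third was not well above background in total heart and was at least 2.15-fold higher in the isolated cells, above both. The fourth was not detected on either array. The annotation ties the third probe to a cDNA clone and the others to the RefSeq transcript, and whether it reads another isoform was not tested.

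Tcf3 encodes the E2A proteins E12 and E47, splice forms that differ in their bHLH part. Its brighter probe was dim, with deposited intensities of 87.1 in total heart (bead SE 7.32) and 107 in lacZ-positive cells (bead SE 9.33). The normalized log2 signals were 5.89 and 5.96, close to the lowest detected signal of 5.65 in total heart. The ratio of Tcf3 was 0.076 with a bead SE of 0.29, so its 95% interval over beads, from -0.48 to 0.64, covered 0. The other probe of Tcf3 was detected in lacZ-positive cells only, with a measured log2 ratio of 0.27 (bead SE 0.24). Its signal there was under the lowest detected signal of total heart, so no bound above 1-fold can be given. By its brighter probe, Tcf3 thus differed from level by less than its bead error. The interval of that probe over beads did not exclude a difference of up to 0.64 on the log2 scale.

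The 4 Id genes were all higher in the lacZ-positive array, with measured ratios between 1.498-fold and 2.22-fold by the probe that stands for each gene. Id1 had a deposited intensity of 801 in total heart (bead SE 32.5) and 2068 in lacZ-positive cells (bead SE 59.1). Its normalized log2 signals were 9.81 and 10.80, and the ratio was 0.99 with a bead SE of 0.077, or 1.98-fold. Id1 therefore lay just inside 2-fold, and its 95% interval over beads reached from 0.83 to 1.14, on both sides of that limit. Id3 had deposited intensities of 222 (bead SE 14.5) and 581 (bead SE 50.8), the second over 17 beads, the fewest of any member probe. Its normalized log2 signals were 7.75 and 8.90, a ratio of 1.15 with a bead SE of 0.17, and its interval from 0.81 to 1.49 also spanned 2-fold. Id1 and Id3, whose combined loss causes heart defects in mouse embryos, were each read by 1 probe, so no other probe bears on their ratios. Of the 9713 genes, 3.99% had a higher ratio than Id1 and 2.46% a higher ratio than Id3.

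Id2 was read by 3 probes, all detected on both arrays, all higher in the lacZ-positive cells, and unequal in size. The brightest had deposited intensities of 522 in total heart and 1012 in lacZ-positive cells, normalized log2 signals of 9.15 and 9.74, and a ratio of 0.58 (bead SE 0.084). The second had intensities of 243 and 751, log2 signals of 7.90 and 9.28, and a ratio of 1.38 (bead SE 0.073). These intervals over beads did not overlap, so the probes of Id2 disagreed on the size by more than bead error. The third and dimmest probe of Id2 fell between them at 0.85, with a wide bead SE of 0.25. The probes of Id2 spanned 0.80 on the log2 scale, where the median span was 0.25 over 3020 genes with at least 2 probes detected on both arrays. Of the 676 genes with exactly 3 such probes, 7.69% spanned at least as much. The count of members past 2-fold takes the brightest probe, by which Id2 was 1.498-fold higher. By its second probe it was 2.61-fold higher.

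Id4 was dim, and its 2 probes passed the detection limit in the lacZ-positive cells only. The brighter one had deposited intensities of 78.4 in total heart (bead SE 3.82) and 147 in lacZ-positive cells (bead SE 6.84). Its detection p-value in total heart, 0.012, lay just over the limit of 0.01. With the reported processing the gene was at least 1.93-fold higher by this probe and at least 1.202-fold higher by the other. These bounds depend on the background correction: the deposited intensities of the brighter probe stood in a ratio of 1.87, and its log2 ratio was 0.52 in the authors' processed values. The measured log2 ratios of the 2 probes were 0.99 and 0.48.

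**Figure D2:**
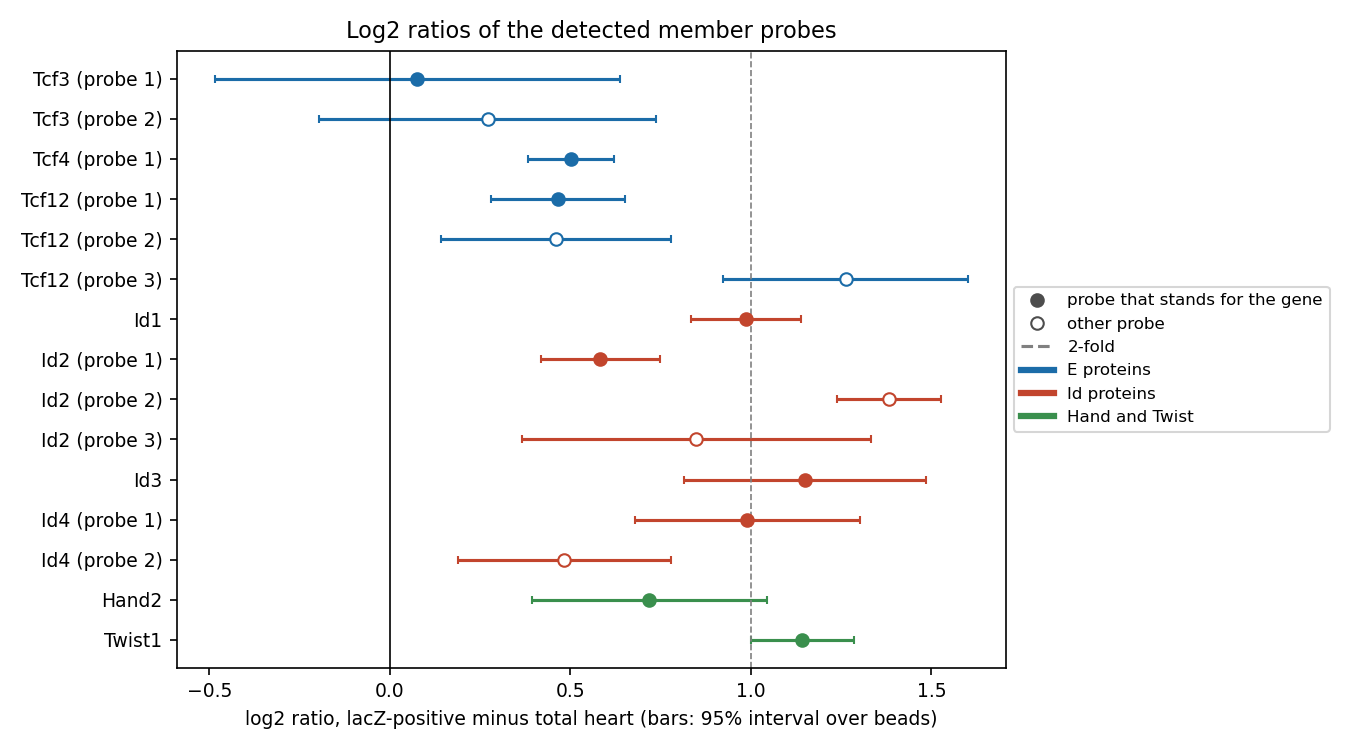
Log2 ratio of each of the 15 detected member probes (points) with its 95% interval over beads (bars); filled points mark the probe that stands for the gene and the dashed line marks 2-fold. Intervals of both Tcf3 probes cover 0, the first and second probes of Id2 do not overlap, and the probes past 2-fold are the third of Tcf12, the second of Id2, and those of Id3 and Twist1.

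Among the class II factors, Twist1 was the member furthest above level beside Id3, Hand2 was higher by less, and Hand1 was not detected. Twist1, a regulator of mesenchyme and of epithelial-to-mesenchymal transition, had deposited intensities of 524 in total heart (bead SE 18.8) and 1483 in lacZ-positive cells (bead SE 46.2). The normalized log2 signals were 9.16 and 10.30, a ratio of 1.14 with a bead SE of 0.073, or 2.21-fold. Of all genes 2.56% had a higher ratio than Twist1. Hand2, which is also required in the mouse epicardium, had intensities of 104 (bead SE 4.67) and 183 (bead SE 13.7). Its normalized log2 signals of 6.29 and 7.01 gave a ratio of 0.72 with a bead SE of 0.17, a 1.65-fold higher signal. Of all genes 8.40% had a higher ratio than Hand2. The single Hand1 probe had intensities of 52.7 and 49.98, with detection p-values of 0.28 and 0.58. Hand1 is known from the left ventricle and outflow tract, and total heart, which holds those regions, also gave no detected signal by this probe. These values say only that the probe did not rise above background, and the level of Hand1 could not be compared.

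At the level of probes, 15 of the 19 were detected on at least 1 array, all 15 had a log2 ratio above 0, and 4 were at least 2-fold higher. Over all 14705 named and detected probes, 54.6% had a ratio above 0 and 3.78% were at least 2-fold higher. Of the 15 member probes, 11 were detected on both arrays, 4 in lacZ-positive cells only and 0 in total heart only. The 4 detected in lacZ-positive cells only (1 of Tcf3, 1 of Tcf12 and 2 of Id4) had to be brighter there to be counted. The probes share targets, since 3 of them read Id2 and 3 read Tcf12, and so they are not independent of each other.

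**Figure D3:**
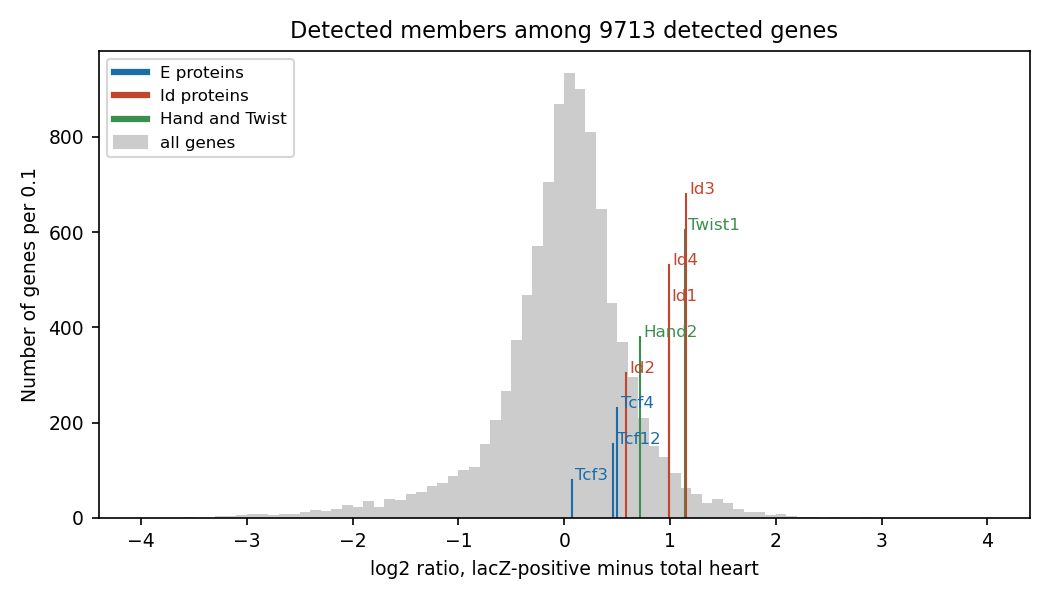
Number of genes per 0.1 of log2 ratio (grey) over the 9713 genes detected on at least 1 array, with the 9 detected members as coloured lines whose heights only separate the names. Tcf3 lies near the centre at 0.076, Tcf12, Tcf4, Id2 and Hand2 lie between 0.47 and 0.72, and Id1, Id4, Twist1 and Id3 lie between 0.99 and 1.15.

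The sequence before the start of a gene is shown for Id2, Id3 and Id4, and for Twist1, the class II member with the highest ratio. The Id genes were taken as the role with the highest median in the reported processing. The RefSeq promoter table (build GRCm38.p6) held 7 of the 10 members, among them Id2, Id3, Id4 and Twist1. It had no entry for Id1, Tcf4 or Hand1, so the window of Id1 was not examined. Each line gives the 250 bases that end just before the annotated start, 5′ to 3′ on the strand of the gene. Id2 is at chr12:25096093-25096342 (minus strand), Id3 at chr4:136143572-136143821 (plus strand), Id4 at chr13:48260866-48261115 (plus strand) and Twist1 at chr12:33957421-33957670 (plus strand). Capitals mark matches on either strand to the E-box letters CANNTG and to CCAAT and TATAA. The last 2 are the letters of common promoter elements and were added after the sequences were seen.
Id2: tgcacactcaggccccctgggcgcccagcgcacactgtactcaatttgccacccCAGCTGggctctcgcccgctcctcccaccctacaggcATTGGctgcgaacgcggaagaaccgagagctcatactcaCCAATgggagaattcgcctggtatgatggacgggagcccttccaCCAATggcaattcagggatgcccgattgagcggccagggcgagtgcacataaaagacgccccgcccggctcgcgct
Id3: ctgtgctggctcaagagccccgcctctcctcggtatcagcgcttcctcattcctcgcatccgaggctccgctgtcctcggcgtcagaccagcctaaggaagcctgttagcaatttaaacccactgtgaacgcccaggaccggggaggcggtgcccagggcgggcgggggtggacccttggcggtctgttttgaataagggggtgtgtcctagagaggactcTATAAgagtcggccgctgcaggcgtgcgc
Id4: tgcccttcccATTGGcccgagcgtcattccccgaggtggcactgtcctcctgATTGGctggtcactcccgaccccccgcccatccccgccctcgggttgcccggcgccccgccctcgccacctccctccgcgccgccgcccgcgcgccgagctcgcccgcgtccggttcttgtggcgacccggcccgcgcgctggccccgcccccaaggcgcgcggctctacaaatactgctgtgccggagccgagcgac
Twist1: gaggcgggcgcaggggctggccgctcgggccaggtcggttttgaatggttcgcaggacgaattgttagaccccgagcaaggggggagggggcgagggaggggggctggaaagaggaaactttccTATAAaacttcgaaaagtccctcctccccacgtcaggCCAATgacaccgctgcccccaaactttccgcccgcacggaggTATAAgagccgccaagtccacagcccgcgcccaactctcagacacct

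Dimers of E proteins and class II factors bind the E-box letters. In the windows of Id2, Id3, Id4 and Twist1 these letters were found 1 time, in Id2, where the match begins 196 bases before the start. Such a match is common: 66.2% of the 32851 promoter windows of the same length held at least 1. The Hand2 window held 2, that of Tcf3 held 1, and of the 3 windows of Tcf12, at different starts, 2 held 1 each. TATAA stood 29 bases before the start of Id3 and 47 and 126 bases before that of Twist1, and 22.8% of all windows held it. CCAAT, counted on either strand, stood 3 times before Id2, 2 times before Id4 and 1 time before Twist1, against 33.8% of all windows with at least 1. These are descriptions of letters in a window and say nothing of whether a factor binds there.

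The gene whose locus carries lacZ is itself a class II partner of the E proteins. In the isolated cells Tcf21 had a log2 ratio of 1.34 (bead SE 0.083), or 2.53-fold, which lay above that of every member by its brightest probe. The isolation used this locus, and where the probe lies relative to the lacZ insertion is not known from these files, so its value is not evidence on the members. Of the 36 class II factors on the array beside the members, Tcf21 included, 7 were detected, and their median log2 ratio was 0.057. Scx, a regulator of tendon and valve tissue, stood at 0.99, and Twist2, the closest relative of Twist1, at 0.057 (both named after their values were seen). Tal1 and Lyl1, partners of E proteins in blood-forming and endothelial cells, were 4.36-fold and 2.81-fold lower.

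Genes that act beside these dimers gave the following values. Of 10 detected E protein cofactors out of 12 on the array, 0 were past 2-fold, with a median of 0.19. Their highest ratio was that of Lmo4 (0.64), which encodes a LIM-only adaptor, and the lowest that of Lmo2 (-0.98), the adaptor that joins Tal1 and E proteins in blood cells. Of 6 detected bHLH repressors of the Hes, Hey and Bhlhe families out of 12, 0 were past 2-fold, with a median of 0.53. Neither count of 0 stands out, since few of all genes were past 2-fold (3.82% higher and 6.44% lower). Hey2 had the lowest ratio, -0.12, which was 0.27 with no normalization between arrays. Of those detected on both arrays the highest were Hey1 and Bhlhe40, each at 0.75 and both named after their values were seen. Heyl, detected in the isolated cells only, was there at least 1.07-fold higher.

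Genes of the BMP pathway, whose receptors act through SMAD proteins known to induce Id genes, gave signal for 13 of 26 listed on the array. Of these 13 genes, 10 had a ratio above 0, where 54.2% of all detected genes did. The median of the 13 was 0.45, against 0.044 over all detected genes. Past 2-fold lay 1 gene on the higher side and 1 on the lower. The higher one was the ligand gene Bmp4, at 1.01 by its brighter probe and 1.02 by the other. The lower one was the ligand gene Bmp7, 4.21-fold lower. The receptor genes Bmpr1a, Bmpr2 and Acvr1 stood at 0.45, 0.50 and 0.71, the signal carrier genes Smad1 and Smad5 at 0.47 and 0.11, and the feedback inhibitor gene Smad6 at 0.55 (these 6 were named after their values were seen). The other probe of Bmpr1a gave 0.021. Below 0 beside Bmp7 were Bmp5 and Eng. Bmp5 was detected in total heart only and was at least 1.22-fold lower in lacZ-positive cells. Eng stood at -0.11, which was 0.31 with no normalization between arrays, and the receptor gene Acvr2b at 0.17. Bmp5, Eng and Acvr2b were also named after their values were seen. Against a background of 3.82% higher and 6.44% lower, the counts past 2-fold in this list were 1 of 13 in each direction.

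**Figure D4:**
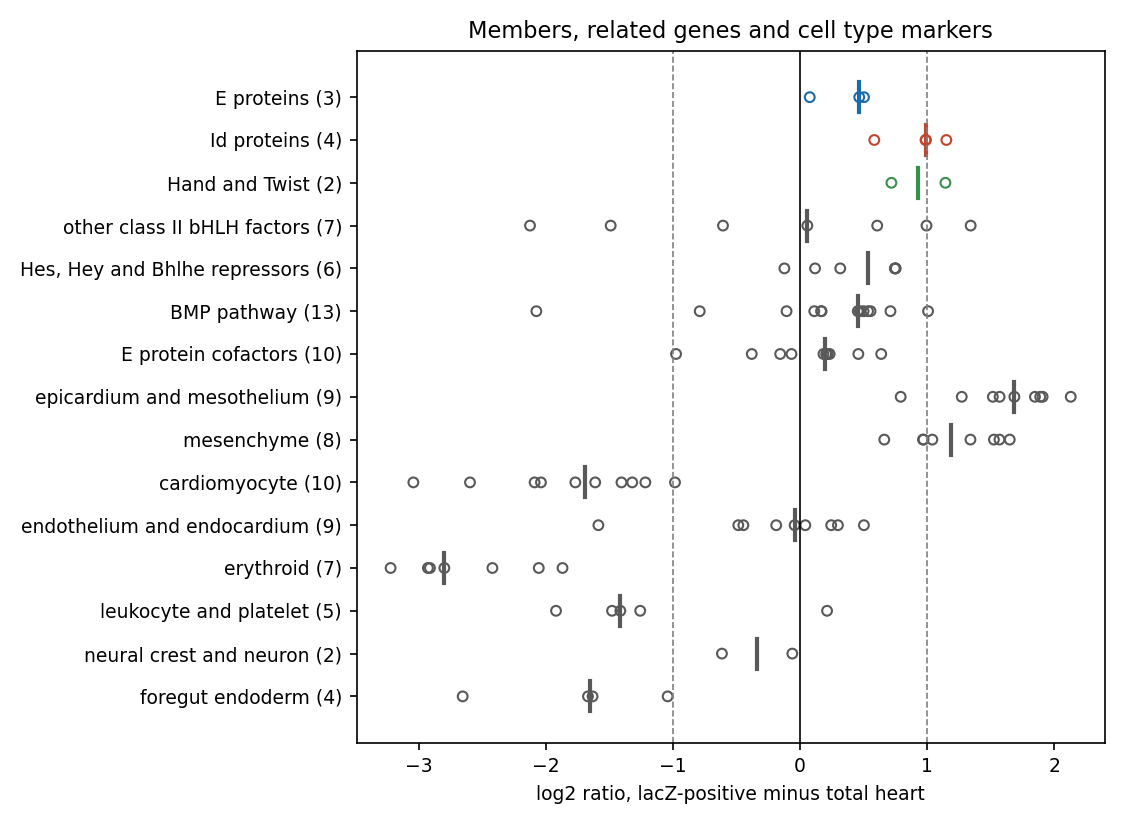
Log2 ratio of each detected gene (open circles) by role or list, with the median as a vertical bar and the number of genes in brackets; dashed lines mark 2-fold in each direction. Id genes, Hand2 and Twist1 lie above level but below the medians of 1.68 and 1.19 of the epicardial and mesenchymal markers, while cardiomyocyte and erythroid markers lie at or below -0.98.

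The 2 samples differed in the markers of several cell types, in both directions. Of 9 detected markers of epicardium and mesothelium, 8 were at least 2-fold higher, with a median of 1.68, and their summed normalized signal was 4719 in total heart and 16830 in lacZ-positive cells. The mesenchymal markers had 5 of 8 at least 2-fold higher, a median of 1.19 and summed signals of 7810 and 21138. Cardiomyocyte markers had 9 of 10 at least 2-fold lower, and their sum was 133101 in total heart and 47385 in lacZ-positive cells. Such sums mostly follow the brightest probes of a list and do not give the amount of a cell type. All 7 detected erythroid markers were at least 2-fold lower, with sums of 48076 and 10868. Leukocyte and platelet markers had 4 of 5 past 2-fold on the lower side, a median of -1.41 and sums of 1953 and 749.8. Foregut endoderm markers had 4 of 4 by measured ratio, with a median of -1.65 and sums of 602.5 and 144. However, 3 of these 4 were detected in total heart only and had to be brighter there to be counted. As bounds, those 3 were at least 1.45-fold, 1.79-fold and 1.84-fold lower in lacZ-positive cells, each short of 2-fold. The 2 detected markers of neural crest and neurons were within 2-fold, with a median of -0.34 and sums of 152 and 121. Of 9 detected endothelial and endocardial markers, 1 was at least 2-fold lower (Cldn5, at -1.59), 0 were at least 2-fold higher and 8 were within 2-fold. Their median was -0.043, which was 0.34 with no normalization between arrays, and their sums were 10264 and 10909. The markers Tbx18 and Msln of mesothelium, Postn of mesenchyme and Kdr of endothelium were on the array but not detected on either sample. The same held for Epb42 of erythroid cells, Ptprc and Itgam of leukocytes, and Epcam, Foxa2 and Sox2 of foregut endoderm. Among neural markers it held for Phox2a, Th, Dbh, Elavl3, Elavl4 and Tubb3. The part of these differences in cell makeup in the ratios of the E protein, Id, Hand and Twist genes was not tested.

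The size of each member's ratio depended on the scaling between arrays. With no normalization between arrays the median of all genes was 0.42 in place of 0.044, and 5 members (Id1, Id3, Id4, Hand2 and Twist1) were at least 2-fold higher, against 10.5% of all genes. After subtracting the median of all genes, Id1 stood at 0.99 without that normalization and at 0.94 with it, and Twist1 at 1.14 and 1.10. The ratio of Tcf3 minus that median was 0.032 with normalization and -0.031 without, so its direction relative to all genes was not settled. Twist1 stayed at least 2-fold higher under each of the 8 alternatives, with ratios from 1.08 to 1.56, though its own 95% interval over beads, from 1.00 to 1.29, began at that limit. With median scaling Id1 also passed 2-fold, at 1.05, which made 3 members. Id3 fell just inside 2-fold in the authors' processed values (0.95) and with no background correction (0.99).

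**Figure D5:**
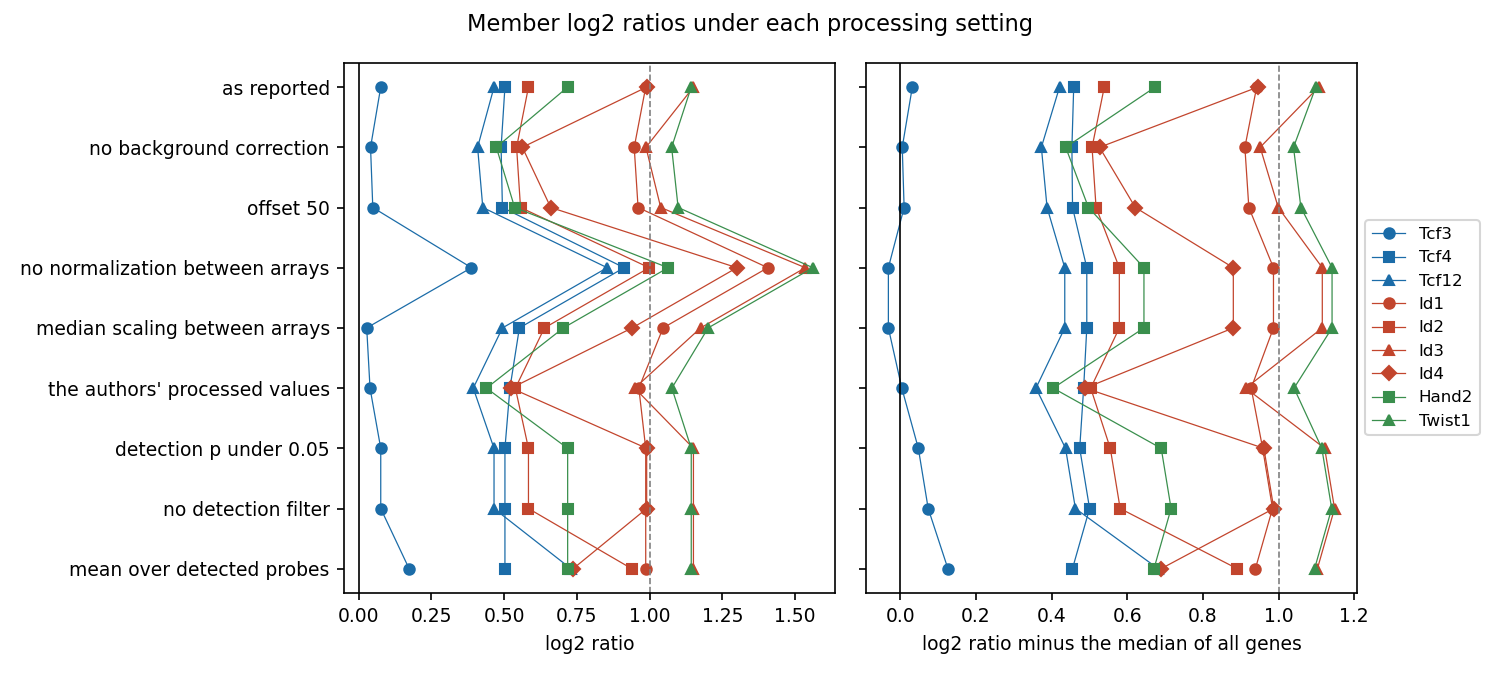
Log2 ratio of each detected member under the reported processing and 8 alternatives (vertical axis), as measured (left) and after subtracting the median of all genes under the same setting (right); lines join a gene's values and the dashed line marks 2-fold. Twist1 stays to the right of 2-fold in the left panel, Id4 and Hand2 have the widest ranges in the left panel, and Tcf3 stays near 0 in the right panel.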

How the data were processed

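RNA from a miRNeasy Mini Kit extraction was turned into biotin-labelled cRNA with the MessageAmp kit for Illumina arrays, per the labels' protocols. GenomeStudio is named in the submitters' processing notes, without a version, and no source used here names a genome build. For each probe the authors deposited a mean intensity over its beads, the standard error of that mean, the count of beads and a detection p-value, per the file headers. These intensities were linear and neither background-subtracted nor scaled, with lowest values of 31.0 and 34.1. A second deposited table held the authors' processed intensity values, equalised between arrays by an unstated method, and served as an alternative.

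Intensities were background-corrected by normexp from the detection p-values (nec, limma 3.58.1, R 4.3.3) with an offset of 16, quantile-normalized, then log2-transformed. A probe was detected at a p-value under 0.01, and a gene was represented by its brightest probe detected on at least 1 array. The bead error of a log2 value came from shifting the intensity by 1 standard error. For a probe detected on 1 array, the bound compares its value there with its own value on the other array or, if greater, that array's lowest detected value. The steps were tested on simulated data, where the differences set were larger than any member ratio and lay in probes above background. Differences of the size seen in the members and probes near background were not covered. GEO's platform annotation gave the names: 34885 had 1 symbol, 18 several and 10378 none.

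The members and all gene lists were chosen with earlier results of these data known. The text names all members, Tcf21, and of each related list the genes past 2-fold and at its ends, and the few further genes named after their values were seen are marked so. No gene was named for a pattern like that of a member, because 2 arrays give 1 difference and no pattern. Alternatives changed the background correction, offset, normalization, source table, detection limit and probe choice. Probe sequences and protein sequences were not used here.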

Additional observations from a re-analysis of the deposited data

How the results depend on the processing

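All 9 detected members had a ratio above 0 under each of the 8 alternatives, where between 50.4% and 79.7% of all genes did, the highest share with no normalization between arrays. The alternatives to the detection filter left the 9 ratios as they were, so they bear little on the members. With no detection filter Hand1 also entered, and the median of Hand and Twist was 0.72. Averaging over detected probes cannot move a gene with 1 such probe, but it changed the members with more. Tcf12 went from 0.47 to 0.73, Id2 from 0.58 to 0.94, Id4 from 0.99 to 0.74 and Tcf3 from 0.076 to 0.17. With no normalization between arrays, 5 members (and 10.5% of all genes) were at least 2-fold higher, and the medians were 0.85 for E proteins, 1.35 for Id proteins and 1.31 for Hand and Twist, beside a shift of 0.42 in the median of all genes. With no background correction 1 member was at least 2-fold higher (2.08% of all genes), and with the authors' processed values also 1 (1.95%), Twist1 in both. The Id median was 0.74 in the authors' values. The cause of the other changes was not tested. In the authors' values Id4 stood at 0.52 and Hand2 at 0.44, both dim. The count of members at least 2-fold lower was 0 under each of these alternatives. No replicate could be left out, because each group had 1 array. No paired analysis was possible because each group had 1 array. Signal close to background limits Tcf3, Id4, Hand1 and Hand2, and the number of arrays limits every ratio.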

Other observations

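Genes whose older names are shared with the E proteins encode HMG-box effectors of Wnt signalling. Tcf7l1, formerly Tcf3, had 1 detected probe, with normalized log2 signals of 10.11 in total heart and 10.75 in lacZ-positive cells and a ratio of 0.64 (bead SE 0.091). Tcf7l2, formerly Tcf4, had 1 detected probe, with a ratio of -0.062 (bead SE 0.12), a value whose 95% interval over beads covers 0 and which became 0.32 with no normalization between arrays. Lef1 was detected in lacZ-positive cells only, by 1 dim probe with a measured ratio of 0.14 (bead SE 0.25). By measured size, the ratios of Tcf7l1 and Tcf7l2 ran in the other order from those of the E proteins Tcf3 (0.076) and Tcf4 (0.50). The 95% interval of Tcf3 over beads, from -0.48 to 0.64, included the ratio of Tcf4, so the order of Tcf3 and Tcf4 was not settled.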
